A study of Mus musculus with 24 samples.

Results

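Star, the gene for the steroidogenic acute regulatory protein, was read with 1 mRNA probe of the 60804 transcript probes on each of 24 mouse arrays. The probe was the one that carries the symbol Star in the study's lists of testis-specific mRNAs found in cell lines. These lists hold 260 mRNA probes for 250 symbols, and Star is among the 37 probes listed for GC-1 and GC-2 and not for F9. No other probe could be matched to the symbol. The Star protein brings cholesterol from the outer to the inner mitochondrial membrane, where the side-chain cleavage enzyme Cyp11a1 begins the synthesis of steroid hormones. In the testis this step is best known from Leydig cells, the interstitial cells that make testosterone in response to luteinizing hormone.

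The series holds 8 groups of 3 arrays. Brain, heart, kidney, liver and testis came from male ICR mice aged 8 weeks. F9 is a mouse embryonal carcinoma line, GC-1 a line derived from spermatogonia and GC-2 a line derived from spermatocytes, and all 3 lines are labelled male. The lines were grown in DMEM with fetal bovine serum, and F9 on gelatin, with no further treatment named. The methods describe the arrays of a group as biological replicates, and the 3 arrays of a line come from 1 established line each. Whole organs were used, so the testis arrays mix germ cells with Sertoli, Leydig and other cells. In such bulk RNA, fewer cells of a type cannot be told apart from less RNA per cell.

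Star (gene ID 20845, NM_011485.5) lies on chromosome 8 at 25808474-25815982 of GRCm38.p6, a span of 7509 bp in the RefSeq annotation. The position of the probe within the gene was not used here. The span of Ash2l, which encodes a subunit of histone H3 lysine methyltransferase complexes, lies 17 bp beyond the higher coordinate of Star. That of Lsm1 lies 4498 bp before the lower one. The strands of these genes were not used here.

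Few markers could identify the cells behind the samples. Of 39 marker genes of fixed lists, 9 had a named mRNA probe and 5 a named lncRNA probe. The named mRNA probes all come from the study's lists of testis-specific mRNAs found in cell lines. Their high testis level and their detection in some line were thus given by the choice. Zfp42, a marker of embryonal carcinoma cells, was at 4.65 ± 0.39 in F9 and at -1.61 ± 0.26 in testis (log2 level, SD, n = 3). Stra8, which marks spermatogonia entering meiosis, and Piwil2, Rnf17 and Tex15, from the spermatocyte list, were well above background on 0 of 3 GC-1 arrays and 0 of 3 GC-2 arrays. All 4 were detected on the 3 testis arrays and the 3 F9 arrays. The spermatid genes Acr, Actl7a and Spag4 were detected on every GC-1 and GC-2 array, but far below testis. In that order they differed from testis by -4.24, -8.89 and -6.14 in GC-1 and by -5.28, -9.37 and -6.03 in GC-2. Acr was also detected on 3 of 3 F9 arrays and 2 of 3 brain arrays. The only Leydig cell marker among 7 with a named probe was Star itself, and none of 6 Sertoli cell markers had one.

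The arrays differed in brightness. The 75th percentile of the processed signal ran from 30.7 on a liver array to 384 on a testis array, and between 18257 and 37393 probes were well above background. Every replicate 1 was hybridized on the first slide. For testis, brain, kidney and liver the remaining arrays were on the second slide, and for heart and the 3 lines on the third. Within GC-2, replicate 1 differed from its fellow arrays, with 122 detected probes more than 8-fold above their mean and 25 more than 8-fold below. In the other 7 groups the same counts for replicate 1 ran from 1 to 20 above and from 1 to 32 below. Star was read with and without this array.

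Star was bright in testis and dim in every other group. On the testis arrays its processed signal, the background-subtracted intensity in scanner units with the scanner's own error, was 1753 ± 175, 2175 ± 218 and 2218 ± 222. In GC-2 it was 152.5 ± 15.7, 19.5 ± 4.33 and 23.9 ± 4.30, so replicate 1 was far brighter than the other two. In GC-1 it was 33.0 ± 5.37, 23.9 ± 4.26 and 16.9 ± 3.71. The GC-1 signals were close to one another and to those of GC-2 replicates 2 and 3.

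In F9 the signal was 9.75 ± 3.58, 31.9 ± 4.93 and 13.2 ± 3.72, and only replicate 2 was well above background. Brain gave 17.9 ± 3.43, 5.91 ± 3.36 and 14.9 ± 3.67. Heart gave 16.8 ± 3.47, 5.56 ± 3.10 and 11.3 ± 3.21. In these tissues Star was well above background on replicate 1 alone.

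Kidney gave 12.2 ± 3.72, 13.0 ± 3.55 and 4.78 ± 3.41, and liver 6.50 ± 6.52, 3.32 ± 3.33 and 3.48 ± 3.49. No kidney or liver array was well above background, and each liver signal was below its own error. Star was therefore well above background on 12 of 24 arrays and on all arrays of 3 groups, testis, GC-1 and GC-2. Under the scanner's weaker flag for a positive and significant signal it was detected on 21 arrays, all but those of liver. No spot was saturated.

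**Figure D1:**
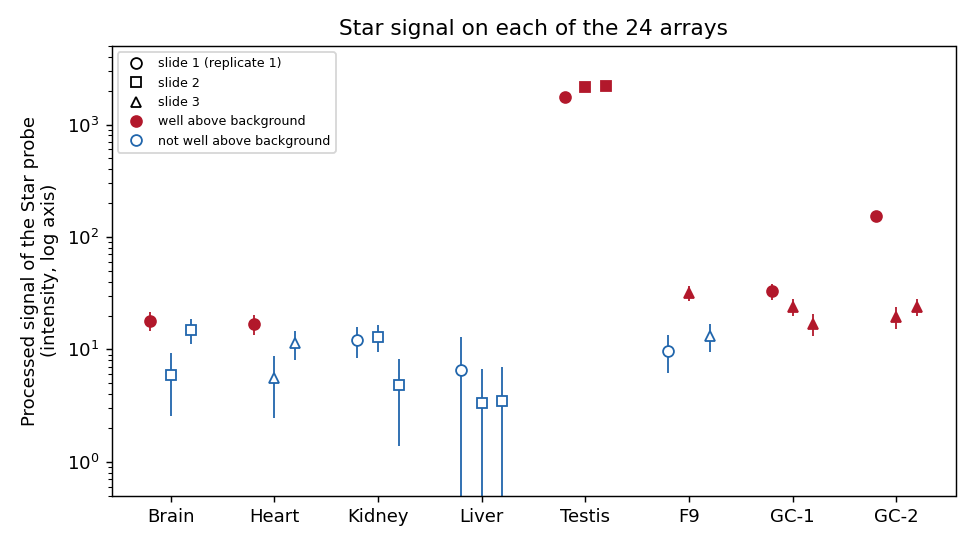
Processed signal of the Star probe (intensity, log axis) on each of the 24 arrays by group, with the scanner's error as bars and the slide as marker shape; filled red points are well above background and open blue points are not. The testis arrays lie between 1753 and 2218, GC-2 replicate 1 at 152.5, and all others at 33.0 or less; liver error bars reach the bottom of the axis.

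To compare arrays, each log2 signal was set relative to the 75th percentile of its own array, and this log2 level is used from here on. The testis level was 2.58 ± 0.34 (SD, n = 3), with arrays at 2.19, 2.83 and 2.71. It was followed by GC-2 at -1.55 ± 1.40, GC-1 at -2.23 ± 0.28 and F9 at -2.31 ± 1.12. Heart was at -2.96 ± 0.66, kidney at -3.20 ± 0.74, liver at -3.23 ± 0.30 and brain at -3.58 ± 0.66. Because most of these low arrays were not well above background, the order below GC-1 is that of dim signals.

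The gap between testis and the next group, GC-2, was 4.13 with a 95% interval from 2.90 to 5.35. Below it no neighbours in the order differed beyond their spread: the arrays of each pair overlapped and each interval held 0. The step from GC-2 to GC-1 was 0.68 (-0.54 to 1.90), from GC-1 to F9 0.08 (-1.14 to 1.30) and from F9 to heart 0.65 (-0.57 to 1.87). The steps among heart, kidney, liver and brain were 0.24, 0.02 and 0.35. The lowest testis array, at 2.19, lay above the highest of the 21 other arrays, GC-2 replicate 1 at 0.06. Of all probes, 10.5% had their 3 testis arrays above the 21 others in the same way.

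**Figure D2:**
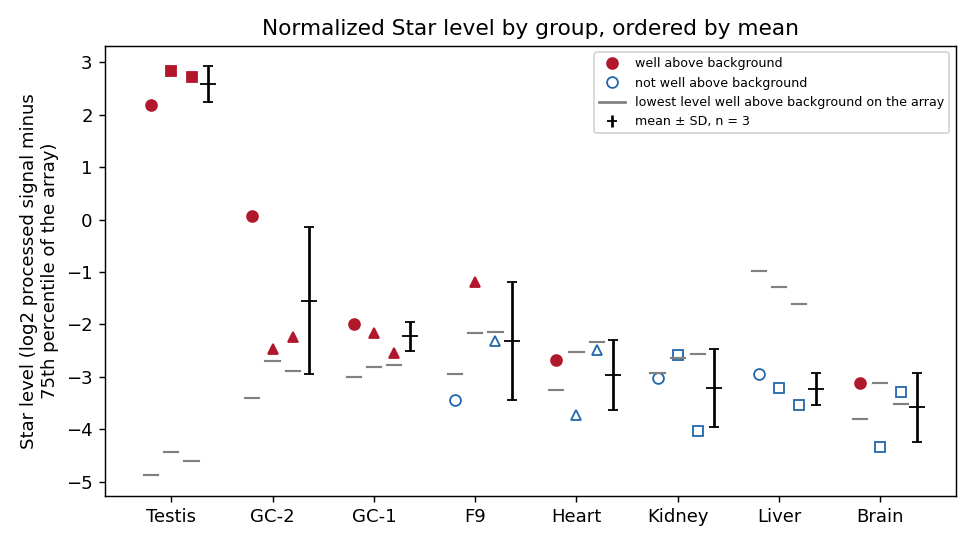
Log2 level of Star (log2 processed signal minus the 75th percentile of the array) by group in the order of the means, with the mean ± SD of 3 arrays in black, the slide as marker shape as in the plot of signals, and grey ticks at the lowest level well above background on each array. Testis stands at 2.58 ± 0.34, while the other groups' means lie between -3.58 and -1.55 and most arrays of the 4 other tissues and F9 are open points.

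The first question was how far testis stands from the 4 somatic tissues. Star could be named only because the study listed it by this contrast, so the values are a description and no test was made. The testis level exceeded that of brain by 6.16 ± 0.59 (SE of the limma fit), heart by 5.54 ± 0.59, kidney by 5.78 ± 0.59 and liver by 5.81 ± 0.59. The somatic arrays ran from -4.33 to -2.49, and none reached the testis range.

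As Star was not well above background on every array of any somatic tissue, the folds are lower bounds. These set a dim array at the higher of its own level and the lowest level well above background on that array. Star was at least 53.9-fold higher in testis than in brain, at least 33.9-fold than in heart, at least 38.5-fold than in kidney and at least 14.6-fold than in liver. These and later bounds hold for the main processing only. On the log2 scale they were 5.75, 5.08, 5.27 and 3.87. With normexp, another background correction, the differences were smaller, at 3.68, 3.19, 3.25 and 2.85. The smaller bound for liver goes with the high lowest detected levels of its arrays, at -0.98, -1.28 and -1.61, while the fitted differences were alike. On liver replicate 1 the lowest signal well above background was 25.3, against 12.6 and 13.3 on replicates 2 and 3. The background at the Star spot was 60, against 24 and 22. The fitted liver difference rests on signals below their own error. Within the slide that holds replicate 1 of each tissue the differences were 5.30, 4.87, 5.20 and 5.13 for brain, heart, kidney and liver. Within the second slide they were 6.59 for brain, 6.07 for kidney and 6.15 for liver.

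The second question was whether the lines keep the testis level. They did not: Star was lower than in testis in all 3. The same testis arrays served its choice. A probe was called with an adjusted p of 0.05 or less and a difference of at least 5-fold, by limma over 24 arrays with Benjamini-Hochberg adjustment over all probes. GC-1 minus testis was -4.80 on the log2 scale (SE 0.59, 95% interval -6.03 to -3.58, 27.9-fold, limma adjusted p = 3.11e-07). In that comparison 11.9% of all probes were called lower in GC-1.

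F9 minus testis was -4.89 (SE 0.59, interval -6.11 to -3.67, limma adjusted p = 2.34e-07), where 11.2% of probes were called lower. With only 1 of 3 F9 arrays well above background, the fold of the means is given as at least 25.4 under the main processing. GC-2 minus testis was -4.13 (SE 0.59, interval -5.35 to -2.90, 17.5-fold, limma adjusted p = 2.61e-06), where 12.4% of probes were called lower. In each comparison the 3 line arrays lay below the 3 testis arrays.

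Without GC-2 replicate 1 the GC-2 level was -2.35 and the difference from testis -4.93 (SE 0.53, interval -6.05 to -3.81, 30.5-fold, limma adjusted p = 9.45e-08). Testis and the lines share only the first slide. Within it, on 1 array each, GC-1 differed from testis by -4.18 and F9 by -5.62, while GC-2 differed by -2.13, which is less than 5-fold. With slide as a block in the fit of all arrays the differences were -4.69, -4.78 and -4.02 in the same order, and all were called. The share of calls that are lower depended on the scaling, as the median of all probes was 1.43, 1.35 and 1.63 above testis in GC-1, GC-2 and F9. Relative to that median, Star differed by -6.23, -5.48 and -6.51. Of the probes called, 40.5% were lower in GC-1, 42.8% in GC-2 and 35.97% in F9, against 79.3%, 81.4% and 79.7% when arrays were scaled on probes detected on all 24 arrays. Quantile normalization gave 50.7%, 50.6% and 51.0%, and normexp gave 47.7%, 47.9% and 46.7%. The direction and the call of Star held under each of these, though the size of its differences moved.

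**Figure D3:**
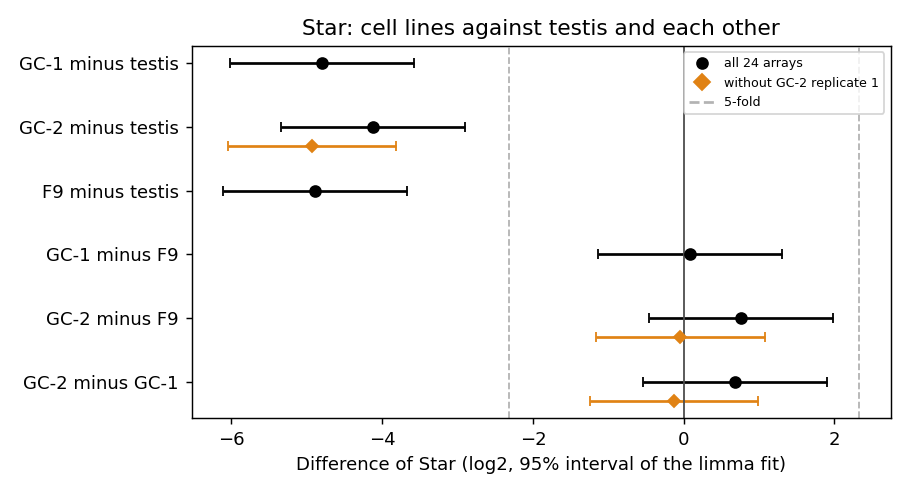
Fitted log2 differences of Star for 6 comparisons with 95% intervals from limma, for all 24 arrays (black circles) and without GC-2 replicate 1 (orange diamonds, for the comparisons with GC-2); dashed lines mark 5-fold. All 3 lines lie more than 5-fold below testis, and the intervals of the differences between lines hold 0.

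The third question was whether the lines differ from one another. GC-1 and F9 differed by 0.08 (SE 0.59, interval -1.14 to 1.30, limma adjusted p = 0.926). GC-2 exceeded F9 by 0.76 (SE 0.59, interval -0.46 to 1.98, adjusted p = 0.320) and GC-1 by 0.68 (SE 0.59, interval -0.54 to 1.90, adjusted p = 0.682). None was called, and the arrays of the lines overlapped. Of all probes, 3.46% were called lower and 3.73% higher in GC-1 than in F9, 3.81% and 3.2% in GC-2 than in F9, and 2.13% and 1.26% in GC-2 than in GC-1.

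Both GC-2 differences rested on replicate 1. Without it GC-2 differed from F9 by -0.04 (interval -1.16 to 1.07, limma adjusted p = 0.955) and from GC-1 by -0.13 (interval -1.24 to 0.99, limma adjusted p = 0.987). On the first slide GC-2 exceeded F9 by 3.49 and GC-1 by 2.05, and GC-1 exceeded F9 by 1.44. On the third slide, with 2 arrays each, the same differences were -0.60, -0.01 and -0.60. GC-1 and GC-2 had Star detected on all arrays and F9 on 1. The study listed Star for GC-1 and GC-2 and not F9 from these same arrays, so this pattern was given by the choice. No difference in level between GC-1 or GC-2 and F9 was detectable. The intervals still allow differences of up to 3.95-fold between GC-2 and F9.

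The excess of Star in GC-2 replicate 1 was large for that array. Its level there, 0.06, exceeded the mean of -2.46 and -2.25 in replicates 2 and 3 by 2.41, or 5.33-fold. Among 24868 probes well above background on all GC-2 arrays, 224 (0.901%) had a larger excess. Among the other 174 listed mRNAs detected on all GC-2 arrays, 82 were higher in replicate 1, with a median of -0.08 and a range from -3.83 to 2.34. Asking for detection on all GC-2 arrays leaves out mRNAs that were seen on replicate 1 alone. Of all 259 other listed mRNAs, 110 were higher in replicate 1, with a median of -0.17, and 4 exceeded Star. These were AA467197 at 7.08, Dmrtc1b at 3.21, Lrrc9 at 3.19 and Nxf3 at 3.17, each well above background on replicate 1 and on neither of the other arrays. They are outside the naming rule and were chosen after their values were seen. In the other groups, replicate 1 differed from the mean of replicates 2 and 3 in Star by 0.35 in GC-1, -1.68 in F9, -0.58 in testis, 0.71 in brain, 0.43 in heart, 0.29 in kidney and 0.44 in liver.

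Among listed mRNAs detected on all GC-2 arrays, the next largest excesses after Star were those of Gm8267 at 2.34, Efcab11 at 2.09, Gm5935 at 1.94, Oip5 at 1.79 and 4930503E14Rik at 1.73. Oip5, a centromere protein, differed between GC-2 and testis by 1.42 (limma adjusted p = 0.00228), and by -0.12 when arrays were scaled on probes detected on all 24 arrays. The GC-2 mean includes replicate 1, for whose excess Oip5 was chosen. In the main scaling the mean of replicates 2 and 3 exceeded testis in Oip5 by 0.83. Gm5935 was at 6.64 ± 0.37 in testis and 0.67 ± 1.12 in GC-2. As a share of the signal on the testis array of the same number, Star was 8.70% on GC-2 replicate 1, 0.897% on replicate 2 and 1.08% on replicate 3. For the 259 other listed mRNAs the share on GC-2 replicate 1 ran upward from 0.0017% for Oxct2b with a median of 10.2%, and 65 were under 1%. The part of testis RNA or of the slide in the high value was not tested.

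**Figure D4:**
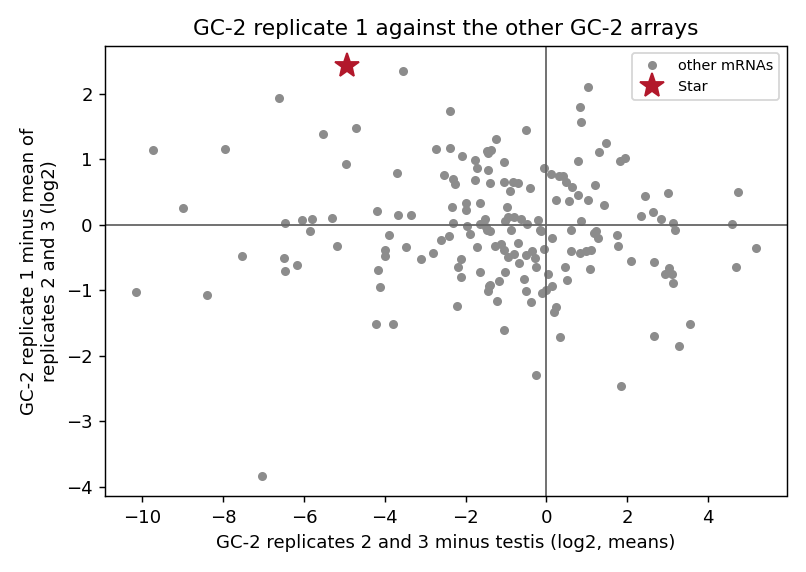
Each point is a listed mRNA well above background on all GC-2 arrays: the x axis gives the mean of GC-2 replicates 2 and 3 minus the testis mean, and the y axis GC-2 replicate 1 minus the mean of replicates 2 and 3 (both log2). Star (red star) has the largest excess of replicate 1 among the mRNAs plotted, at 2.41, and the 174 others scatter around 0; 4 listed mRNAs with a larger excess were detected on replicate 1 alone and are not plotted.

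Star was among the listed mRNAs with larger falls, though not at the extreme. The median of the 259 others was -1.88 in GC-1, -1.93 in GC-2 and -1.03 in F9, relative to testis. Differences more negative than that of Star were seen for 68, 81 and 48 of them. In GC-1, 115 of the 259 were called lower than testis and 17 higher. In GC-2 the counts were 117 and 18, and in F9 88 and 27. Over all probes the shares called lower and higher were 11.9% and 17.4% in GC-1, 12.4% and 16.7% in GC-2, and 11.2% and 20% in F9. As these probes were listed for being high in testis, the counts describe the list.

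Among the 36 other mRNAs listed for GC-1 and GC-2 and not F9, 4 fell further than Star in GC-1, 6 in GC-2 and 8 in F9. Their medians were -1.74, -1.74 and -2.84. Of them, 12 were called lower than testis in GC-1, 14 in GC-2 and 20 in F9, and 0 were called higher in any line. By limma at an unadjusted p under 0.05 with no fold required, 28 were lower in GC-1, 29 in GC-2 and 32 in F9, and again 0 were higher. Over all probes the same threshold was passed by 19.5% lower and 62.8% higher in GC-1, 20% and 61.7% in GC-2, and 18.8% and 64.2% in F9. These 36 were listed from these same arrays as high in testis and as present in GC-1 and GC-2 and not F9. The counts and the lower median in F9 thus describe the list.

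In the order of all listed mRNAs by GC-1 minus testis, Star at -4.80 stood between Etv2 at -4.83 and Hormad2 at -4.73. Etv2 encodes an ETS transcription factor and Hormad2 a protein of meiotic chromosome axes, and neither was well above background on a GC-1 array, so their falls are bounds of at least 18.5-fold and at least 6.50-fold. In the order for GC-2, Star at -4.13 stood between Skp2 at -4.15 and Isg20l2 at -4.12, both detected on all 3 GC-2 arrays. Skp2 is the substrate receptor of a ubiquitin ligase that acts in the cell cycle.

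The mRNAs whose levels ran most like those of Star over the 24 arrays were Lnp (Pearson r = 0.93), Actl7a (0.93), Poc1b (0.93), Sept12 (0.92) and 1700011I03Rik (0.92). Actl7a is an actin-related protein of the sperm head, Sept12 a septin of the sperm tail and Poc1b a centriolar protein. The list was chosen for high testis signal, and the contrast of testis with all other arrays sets these values. Over the 9 line arrays the most similar were Cdc45 (0.77), Rad18 (0.76), Poc1b (0.75), Clhc1 (0.73) and Dusp4 (0.66). Without GC-2 replicate 1 their values over 8 arrays were 0.57, 0.38, 0.41, 0.38 and 0.76. Cdc45, part of the replicative helicase, was higher than in testis in GC-2 by 1.88 (limma adjusted p = 0.00116) and in GC-1 by 1.95 (limma adjusted p = 0.000817), opposite in direction to Star. With arrays scaled on probes detected on all 24 arrays these differences were 0.34 and 0.48. The arrays share the slides and scaling, and no p is given.

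Poc1b was named by both orders. It was picked for likeness to Star on these same arrays, from a list chosen for high testis signal. Its falls from testis and its order of groups were thus largely given by the choice, and the p-values below are no separate evidence. Its level was 2.77 ± 0.13 in testis, -0.67 ± 0.51 in GC-2, -1.49 ± 0.25 in GC-1 and -1.83 ± 0.38 in F9. The group means of Star had the same order with all arrays, but not without GC-2 replicate 1, when GC-2 at -2.35 lay below GC-1 and F9. Its difference from testis was -3.44 in GC-2 (limma adjusted p = 1.27e-06), -4.26 in GC-1 (limma adjusted p = 5.76e-08) and -4.60 in F9 (limma adjusted p = 1.77e-08).

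Ash2l, the neighbour of Star on the chromosome, is outside the rule by which genes were named and was chosen for its position. Its level was -0.42 ± 0.25 in testis, -0.18 ± 0.46 in GC-1 and 3.46 ± 0.15 in F9, with all arrays well above background. It was -5.14 ± 0.40 in GC-2, with 0 of 3 arrays well above background, and it was not detected in the 4 somatic tissues. Absence from those tissues was a criterion of the study's list that named the probe. Ash2l has several RefSeq transcripts, and which of them this single probe reads was not checked, so its values need not stand for the whole gene. F9 exceeded testis in Ash2l by 3.88 (limma adjusted p = 1.18e-09), and GC-2 was at least 5.93-fold below testis (limma adjusted p = 4.65e-11). GC-1 differed from testis by 0.24 (limma adjusted p = 0.504), and by -1.24 with arrays scaled on probes detected on all 24 arrays. In F9 the neighbours differed from testis in opposite directions, as Star was lower there and Ash2l higher.

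The rest of the steroid pathway could hardly be read, since the array files name no genes and the lists of all mRNAs in the tissues and lines are held here only in part. Of 45 genes fixed for steroid hormone synthesis, its regulators, cholesterol supply, START domain transporters and cholesterol synthesis, 1 had a named mRNA probe, Star, and 4 were paired with a lncRNA probe. No member with a Leydig cell role besides Star could be followed, so how steroid enzymes as a group stood in these samples was not analysed here. The lncRNA ENSMUST00000147515 of Por, the gene of the reductase that passes electrons to microsomal P450 enzymes, was detected on all brain arrays at -0.86 ± 0.47 and on 1 of 3 testis arrays. It was not well above background on any array of the lines.

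The lncRNA ENSMUST00000151539 overlaps exons of Cyp51, which encodes an enzyme of cholesterol synthesis, in the sense direction. It ran from 1.67 ± 0.18 in brain to 9.88 ± 0.51 in liver, with testis at 2.40 ± 0.27. The lines were higher than testis, by 3.72 in GC-1 (limma adjusted p = 3.42e-10), 3.41 in GC-2 (limma adjusted p = 1.30e-09) and 4.15 in F9 (limma adjusted p = 5.66e-11). AK157131, antisense to exons of Idi1, an enzyme earlier in the same route, was lowest in testis at 4.44 ± 0.12 and lay between 5.40 and 7.03 in the other groups, although testis exceeded liver by 0.36 with arrays scaled on probes detected on all 24 arrays and by 0.20 with normexp. NR_045613 is an intergenic lncRNA listed under the symbol Zfp572 and lies near Sqle, which encodes squalene epoxidase. It was at 1.84 ± 0.12 in testis and not well above background elsewhere. The Cyp51 lncRNA thus moved opposite to Star between testis and the lines, while the lncRNA near Sqle was low where Star was low. The probe near Sqle could be named only through the study's lists, drawn from these same arrays. Its likeness to Star is therefore a description and no separate evidence. Levels of different probes are not comparable with each other, and a lncRNA probe need not measure the mRNA of its neighbour. The Cyp51 lncRNA overlaps exons in the sense direction, and whether its probe also reads Cyp51 mRNA was not checked.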

How the data were processed

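Arraystar lncRNA arrays were hybridized with Cy3-labelled cRNA, 1 per sample. The authors deposited scanner output of Feature Extraction 11.5.1.1 with spot intensity before and after background subtraction, and a table of intensities that equals the processed signal (largest relative difference 0.000228). The study's normalization in GeneSpring was not repeated.

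Log2 processed signals of 60804 transcript probes, less each array's 75th percentile, were fitted with limma 3.58.1 in R 4.3.3 (lmFit and eBayes, 8 group means). Detection was the scanner's well-above-background flag. Probes were named from the study's supplementary lists (3456 in all), positions from RefSeq on GRCm38.p6; authors' fold changes there were not used. Alternatives were scaling, normexp, a filter on dim probes, fewer arrays, slide or replicate blocks and left-out arrays. Normexp used the median signal with an offset of 50 (a mean signal is not used here). The fit was checked on simulated data.

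Besides Star, the text names the 5 listed mRNAs most correlated with it over all arrays and over the lines, the 5 with the largest excess in GC-2 replicate 1 among those detected on all GC-2 arrays, its neighbours by difference from testis, and named genes of fixed pathway and marker lists. The gene, lists and tests were chosen with earlier results of these data known. With 3 arrays a group, array number limits precision.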

Additional observations from a re-analysis of the deposited data

How the results depend on the processing

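The falls of Star in GC-1, GC-2 and F9 below testis kept their direction and call under all alternatives run, and no difference between lines was called. Adjusted p-values from limma and from the methods' test ran from 6.30e-13 to 0.000341 for GC-1, 5.40e-12 to 0.0131 for GC-2 and 2.60e-12 to 0.00463 for F9, the largest from the methods' test, added after seeing the data. Leaving out single arrays moved the differences from testis within -5.00 to -4.65 for GC-1, -4.93 to -3.67 for GC-2 and -5.45 to -4.33 for F9. The processing moved them further. With normexp they were -3.26, -2.91 and -3.03 in the same order. With scaling on probes detected on all 24 arrays they were -6.28, -5.67 and -6.48. Between lines the direction turned for GC-1 minus F9 with normexp (-0.23, adjusted p = 0.358), and its left-out arrays ran from -0.48 to 0.64 (-0.48 without F9 replicate 1 and -0.04 without GC-1 replicate 1). It turned without GC-2 replicate 1 for GC-2 minus F9 (to -0.044, left-out range -0.044 to 1.32) and for GC-2 minus GC-1 (-0.13 to 1.13). Testis minus brain moved to 3.68 with normexp. With scaling on probes detected on all 24 arrays and with normexp, testis minus heart moved to 6.56 and 3.19, minus kidney to 7.02 and 3.25, and minus liver to 7.13 and 2.85. The cause was not tested. Leaving out single arrays gave 5.78 to 6.39 for brain, 5.16 to 5.78 for heart, 5.37 to 6.10 for kidney and 5.65 to 6.0005 for liver. The weaker detection flag gave 21 arrays and 7 groups against 12 and 3. Levels were not run under quantile normalization, which has no shared zero with the other scalings.

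The replicate block left the differences from testis at -4.80, -4.13 and -4.89 with limma adjusted p-values of 1.13e-06, 6.73e-06 and 6.83e-07. It moved the calls in GC-1 against testis from 7223 to 7226 lower and from 10609 to 10610 higher, and changed no call on Star. Of 18 same-numbered pairs among testis and lines, 16 had deviations correlated above 0.1 (range 0.085 to 0.554) and 12 correlated best with their own number, a hint from the data, since 2 pairs were not above 0.1 and the labels name no pairing. Every replicate 1 shares a slide.

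Counts of probes called lower than testis, 7223 in GC-1, 7567 in GC-2 and 6832 in F9, became 11619, 12237 and 11663 with scaling on probes detected on all arrays, and 3689, 3796 and 3494 with normexp. Counts called higher, 10609, 10133 and 12162, became 3029, 2797 and 2974, and 4041, 4131 and 3988. Without F9 replicate 1, F9 had 20779 probes higher. Quantile normalization gave 7119 higher in F9. Between lines, normexp gave 556 lower and 701 higher for GC-1 against F9 (from 2101 and 2271), 638 and 644 for GC-2 against F9 (from 2316 and 1946), and 338 and 207 for GC-2 against GC-1 (from 1297 and 766); the methods' test after Benjamini-Hochberg gave 785 and 452 for the last. In GC-1, GC-2 and F9 against testis it gave 7164, 7471 and 6781 lower, and 7179, 7504 and 6797 at the unadjusted threshold.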
